A study of Mus musculus with 4 samples.

Results

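Cholesterol and fatty acid synthesis genes were followed across mouse CD4+ T cell arrays. The group held 33 genes: 18 enzymes that lead from acetyl-CoA to cholesterol, 9 enzymes that make, elongate or desaturate fatty acids, 5 regulators of both branches, and the sterol transfer protein gene Stard4. All 33 were found among the 27597 genes of the array, by the gene name or by the current symbol of the probe's accession. Where several probes read a gene, the brightest by mean log2 signal over the 4 arrays was used. A probe counted as measured where the scanner software called it well above background, and 31 of the 33 genes were measured on all arrays. The exceptions were Me1, which was not well above background on any array, and Scd1, which was so only in the si-Eos-labelled library.

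Each group was a single array, and all cells came from spleen and lymph nodes of Balb/C mice. The si-Eos-labelled library was made from natural regulatory T cells (Treg, CD4+CD25+) that carried a lentiviral hairpin against Eos, the zinc-finger protein encoded by Ikzf4. The si-RL-labelled library was made from Treg with a hairpin against Renilla luciferase, the control, and both spent 60 h in medium with human IL-2 before GFP+ cells were sorted. Untransduced Treg (CD4+CD25+) and untransduced naive T cells (CD4+CD25-CD62Lhi) carried no hairpin, and the labels do not say whether they were cultured. Transduction, the 60 h culture and the GFP sort cannot be told apart in a comparison of a hairpin library with Treg. The labels do not give the number of mice behind an array or name a CD62L gate for Treg.

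Cells make cholesterol from acetyl-CoA through mevalonate, farnesyl diphosphate and squalene, and they make fatty acids from acetyl-CoA through malonyl-CoA. Transcription of both branches is driven by the sterol regulatory element binding proteins (SREBPs), of which SREBP2, encoded by Srebf2, mainly serves the sterol genes and SREBP1, encoded by Srebf1, mainly serves the fatty acid genes. The escort protein SCAP carries SREBPs from the endoplasmic reticulum to the Golgi when sterols are low, and INSIG proteins hold the complex back when sterols are high. T cells that leave quiescence and divide are known to raise both branches to build membrane.

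The stretches before the transcription start of 3 sterol enzyme genes and 1 fatty acid enzyme gene are shown as chosen examples. They were taken from RefSeq promoter windows of GRCm38.p6, written 5′ to 3′ on the gene's strand, and end at the base before the annotated start. Capitals mark CCAAT (the letters bound by NF-Y), GGGCGG (a GC box, bound by Sp1), the sterol regulatory element TCACNCCAC and the E-box CACGTG, searched on both strands. Hmgcs1 lies at chr13:119690101-119690350 (+), Msmo1 at chr8:64733579-64733828 (-), Cyp51 at chr5:4104698-4104947 (-) and Elovl6 at chr3:129532136-129532385 (+).
Hmgcs1: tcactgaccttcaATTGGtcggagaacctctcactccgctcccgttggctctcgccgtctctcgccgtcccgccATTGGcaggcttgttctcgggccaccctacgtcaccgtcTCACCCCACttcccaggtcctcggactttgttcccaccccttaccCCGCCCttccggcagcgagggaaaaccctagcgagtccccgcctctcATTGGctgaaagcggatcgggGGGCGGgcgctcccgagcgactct
Msmo1: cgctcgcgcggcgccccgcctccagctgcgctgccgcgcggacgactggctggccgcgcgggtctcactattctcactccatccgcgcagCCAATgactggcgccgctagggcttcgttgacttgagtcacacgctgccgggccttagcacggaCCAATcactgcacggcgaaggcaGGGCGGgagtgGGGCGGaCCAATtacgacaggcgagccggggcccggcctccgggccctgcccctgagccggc
Cyp51: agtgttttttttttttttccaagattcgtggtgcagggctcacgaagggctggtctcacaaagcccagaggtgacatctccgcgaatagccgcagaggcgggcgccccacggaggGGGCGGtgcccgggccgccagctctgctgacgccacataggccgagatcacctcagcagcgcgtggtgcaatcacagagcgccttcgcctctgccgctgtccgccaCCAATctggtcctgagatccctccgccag
Elovl6: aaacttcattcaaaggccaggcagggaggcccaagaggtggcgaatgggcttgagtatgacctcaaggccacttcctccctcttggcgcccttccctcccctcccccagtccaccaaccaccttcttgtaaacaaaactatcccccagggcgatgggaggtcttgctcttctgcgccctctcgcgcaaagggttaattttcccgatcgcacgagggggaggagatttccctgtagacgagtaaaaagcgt

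In these stretches Hmgcs1 held 1 sterol regulatory element, 3 CCAAT and 2 GC boxes, and Msmo1 held 3 CCAAT and 2 GC boxes. Cyp51 held 1 CCAAT and 1 GC box, and Elovl6 held none of the 4 motifs. Windows of 250 bases before to 50 after the start were available for 26 of the 33 genes. None was available for Fads1, Fdft1, Fdps, Scd1, Scd2, Sqle and Stard4. The fatty acid enzyme genes with a window therefore leave out Scd1 and Scd2, which were at least 2-fold higher in the si-Eos-labelled library than in the si-RL-labelled library. In its window the fatty acid enzyme gene Acly, which differed by -0.06 ± 0.20 between the hairpin libraries, held 1 CCAAT and 4 GC boxes. CCAAT was found in 14 of 15 sterol enzyme genes (93.3%) and 3 of 6 fatty acid enzyme genes, against 42.3% of 17491 protein-coding genes. The GC box was found in 14 of 15 sterol enzyme genes (93.3%) and in 3 of 6 fatty acid enzyme genes, against 49.2% of protein-coding genes. The exact letters of the sterol regulatory element were found only in Hmgcs1 among the 26 genes, and in 1.41% of protein-coding genes. The E-box was found in 3 of 15 sterol enzyme genes, 0 of 6 fatty acid enzyme genes and 8.91% of protein-coding genes. Of the 5 regulator genes, 4 held CCAAT, 5 the GC box and 2 the E-box. Among these 5 regulators, 4 were within 2-fold between the hairpin libraries. Most measured genes were also within 2-fold, as 10.7% passed it upward and 10.1% downward in the si-Eos-labelled library. The count of regulators within 2-fold therefore does not set them apart from other genes. The motif counts are matches of letters and show no binding, and any link of the motifs to the differences between arrays was not tested.

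The targeted gene went against the labels. Ikzf4 gave processed signals of 249.4 in the si-Eos-labelled library, 107.3 in the si-RL-labelled library, 363.1 in Treg and 192.5 in naive T cells, and its 2 other probes were also higher in the si-Eos-labelled library than in the si-RL-labelled library. Foxp3, the factor that defines Treg, gave 2644 in the si-Eos-labelled library, 110.1 in the si-RL-labelled library, 1778 in Treg and 64.4 in naive T cells. For this marker the si-RL-labelled library, though made from Treg, lay nearer to naive T cells than to Treg. The directions between the hairpin libraries therefore hold for the libraries as labelled, and every sign would turn if the labels had been exchanged. Between 64.0% and 68.3% of probes were well above background on an array. Levels are log2 of the processed signal minus the array's 75th percentile, and differences between arrays are in log2 with the scanner software's error of the 2 spots combined (±), which covers technical error only. Processed signals are printed before this scaling, so their order across arrays can differ from that of the levels. As every group was 1 array, the spread between samples is unknown and no test was run. A gene was counted from a 2-fold difference, beside the share of all measured genes past the same fold.

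**Figure D1:**
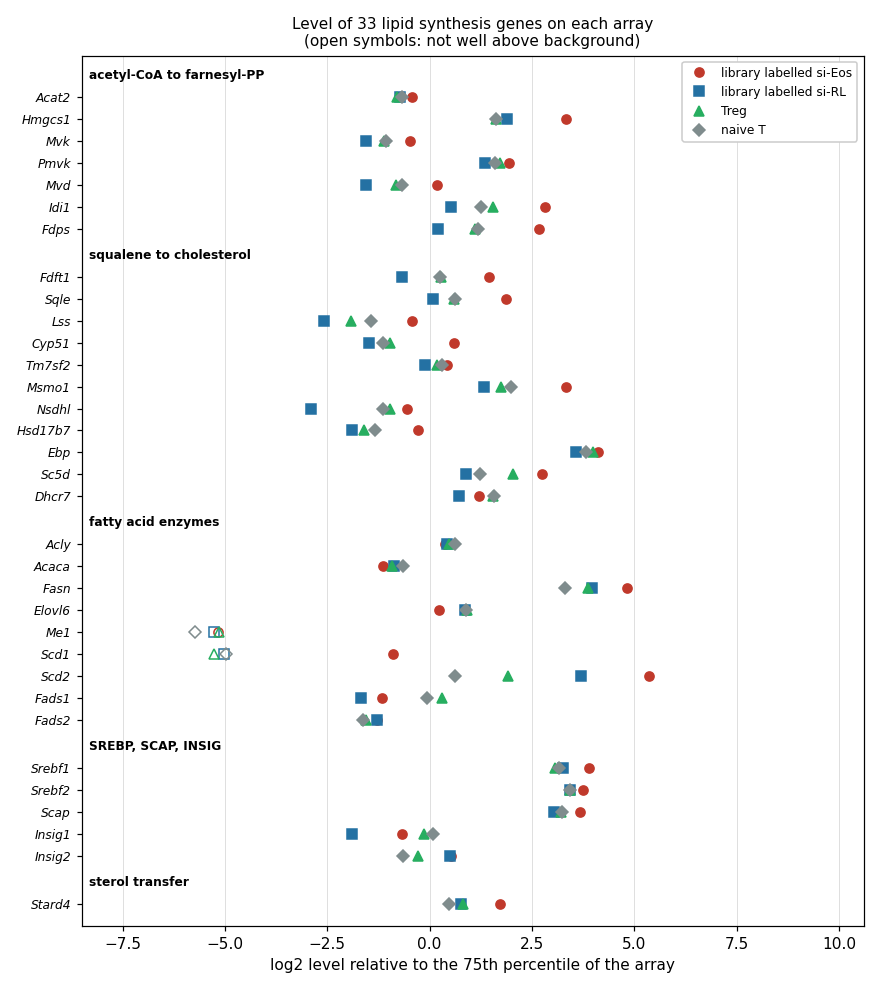
Level of each gene (log2 of the processed signal relative to the array's 75th percentile, horizontal axis) on the 4 arrays, with genes grouped by role; open symbols were not well above background. Of the 18 sterol enzymes, 17 had their highest level in the si-Eos-labelled library, and 16 had their lowest in the si-RL-labelled library.

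The sterol enzymes were highest in the si-Eos-labelled library and lowest in the si-RL-labelled library. Of the 18, 17 had their highest level of the 4 arrays in the si-Eos-labelled library, the exception being Dhcr7, which was highest in naive T cells. Over the 16452 genes measured on all arrays, 33.1% had their highest level in the si-Eos-labelled library. The lowest level was in the si-RL-labelled library for 16 of the 18, against 29.9% of all genes, the exceptions being Hmgcs1 (lowest in naive T cells) and Acat2 (lowest in Treg). The median level of the branch was 1.33 in the si-Eos-labelled library, -0.02 in the si-RL-labelled library, 0.43 in Treg and 0.46 in naive T cells. The 7 fatty acid enzymes measured on all arrays showed no common order: 3 were highest in the si-Eos-labelled library (Fasn, Scd2 and Fads2), and 3 were lowest there (Acly, Acaca and Elovl6). Their median level was 0.22 in the si-Eos-labelled library, 0.42 in the si-RL-labelled library, 0.48 in Treg and 0.62 in naive T cells.

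The si-Eos-labelled library was then compared with the si-RL-labelled one. All 18 sterol enzymes were higher in the si-Eos-labelled library, 13 of them by at least 2-fold, with a median difference of 1.76 (3.38-fold). At least 2-fold higher there were 10.7% of the 17085 genes measured, 52.4% were higher by any amount, 10.1% were at least 2-fold lower, and their median difference was 0.04. Of the 7 measured fatty acid enzymes, 1 was at least 2-fold higher, none was 2-fold lower, and the median difference was 0.00. Scd1 was outside this count and median, as it was not well above background in the si-RL-labelled library. It was at least 15.6-fold higher in the si-Eos-labelled library. With no filter on dim probes the fatty acid median was 0.09. Over the measured enzymes, the medians of the branches were 1.75 apart, and all 18 sterol enzymes lay above the fatty acid median. This gap had no test, since genes are not replicates of a condition. It kept its sign under the 7 alternative settings, between 0.80 (mean of all probes of a gene) and 1.76. Scaling a whole array by a single factor cannot change this gap, and the deposited value table held the same values. Those settings were therefore no check of the gap.

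**Figure D2:**
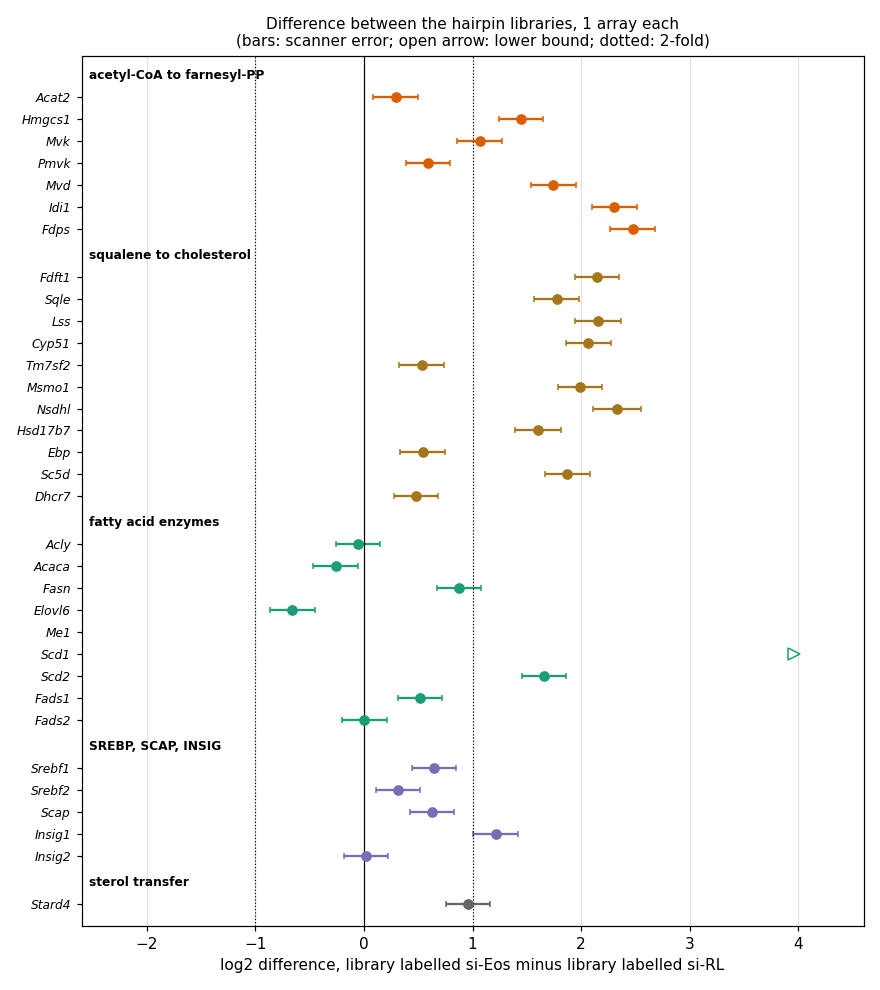
Log2 difference between the si-Eos-labelled library and the si-RL-labelled library (horizontal axis) for each gene, by role; bars are the scanner error, dotted lines 2-fold, and the open arrow for Scd1 a lower bound. The 18 sterol enzymes lie between 0.29 and 2.47, and the 7 measured fatty acid enzymes between -0.66 and 1.66.

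In the mevalonate part of the pathway, 5 of 7 enzymes were at least 2-fold higher in the si-Eos-labelled library. Fdps, which makes farnesyl diphosphate, gave processed signals of 2035 in the si-Eos-labelled library, 300.3 in the si-RL-labelled library, 840 in Treg and 692.1 in naive T cells. The si-Eos-labelled library stood alone at the high end, and Fdps differed between the hairpin libraries by 2.47 ± 0.20 (5.55-fold). Hmgcs1, the HMG-CoA synthase of the cytosol, gave 3227 in the si-Eos-labelled library, 972.5 in the si-RL-labelled library, 1210 in Treg and 930.6 in naive T cells. Here the other arrays lay close together, and the difference between the hairpin libraries was 1.44 ± 0.20. Mvd, the mevalonate diphosphate decarboxylase, gave 364.5 in the si-Eos-labelled library, 89.3 in the si-RL-labelled library, 220.9 in Treg and 188.9 in naive T cells, a difference of 1.74 ± 0.21 between the hairpin libraries. Mevalonate kinase (Mvk) was closer to the threshold, at 1.07 ± 0.21. Pmvk, the next kinase, differed by 0.59 ± 0.20 and the thiolase gene Acat2 by 0.29 ± 0.20. Acat2 has a close paralog beside it on chromosome 17, Acat3, whose probes differed by 0.25 ± 0.21 and -0.91 ± 0.21, and cross-hybridisation between them was not tested.

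Idi1, the isopentenyl diphosphate isomerase, gave 2267 in the si-Eos-labelled library, 375.6 in the si-RL-labelled library, 1148 in Treg and 717.8 in naive T cells. It differed by 2.31 ± 0.20 between the hairpin libraries. The file places both Idi1 probes on chromosome 2 of mm8 (the brighter at 53516550 to 53516609), whereas RefSeq has the gene on chromosome 13, so which locus these signals come from cannot be told here. Idi2, the paralog on chromosome 13, differed the same way, with signals of 193.5 in the si-Eos-labelled library and 12.1 in the si-RL-labelled library.

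From squalene to cholesterol, 8 of 11 enzymes were at least 2-fold higher in the si-Eos-labelled library, with a median of 1.87. Fdft1, the squalene synthase that commits farnesyl diphosphate to sterols, gave 881.9 in the si-Eos-labelled library, 163.3 in the si-RL-labelled library, 477 in Treg and 361.9 in naive T cells. Its difference between the hairpin libraries was 2.15 ± 0.20. Squalene epoxidase (Sqle) gave 1159 in the si-Eos-labelled library, 277.8 in the si-RL-labelled library, 589.1 in Treg and 462.4 in naive T cells, a difference of 1.77 ± 0.20. Both genes shared the order of Fdps, with the si-Eos-labelled library high, the si-RL-labelled library low and the untransduced cells between them. Lanosterol synthase (Lss) differed by 2.16 ± 0.21, the lanosterol demethylase gene Cyp51 by 2.07 ± 0.21 and the methylsterol oxidase gene Msmo1 by 1.99 ± 0.20. Msmo1 signals were 3209 in the si-Eos-labelled library, 661.9 in the si-RL-labelled library, 1305 in Treg and 1210 in naive T cells. The sterol dehydrogenase gene Nsdhl differed by 2.33 ± 0.22, on low signals of 216.7 in the si-Eos-labelled library and 35.3 in the si-RL-labelled library. Sc5d, the lathosterol desaturase, differed by 1.87 ± 0.20 and Hsd17b7, a sterol ketone reductase, by 1.60 ± 0.21. The enzymes within 2-fold were Tm7sf2 (0.53 ± 0.20), Ebp (0.54 ± 0.20) and Dhcr7 (0.48 ± 0.20), which encode reductases and an isomerase of the sterol ring.

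The fatty acid enzymes went different ways between the hairpin libraries. Scd2, a stearoyl-CoA desaturase, gave 13240 in the si-Eos-labelled library, 3432 in the si-RL-labelled library, 1475 in Treg and 467.3 in naive T cells. It was the only measured fatty acid enzyme past 2-fold between the hairpin libraries, at 1.66 ± 0.20, and its 4 arrays formed a ladder in which both hairpin libraries were above both untransduced samples. Scd1, the paralog that is the main desaturase of liver and fat, gave 172.8 in the si-Eos-labelled library and was not well above background elsewhere, with 8.09 in the si-RL-labelled library, 10.2 in Treg and 9.59 in naive T cells. The Scd1 level in the si-Eos-labelled library was at least 15.6-fold higher than in the si-RL-labelled library, a bound set against the lowest level well above background or the dim probe's own level, whichever was higher. Whether part of the Scd1 signal came from Scd2 RNA on the Scd1 probe was not tested. Fasn, the fatty acid synthase, gave 9128 in the si-Eos-labelled library, 4079 in the si-RL-labelled library, 5734 in Treg and 3015 in naive T cells, a difference of 0.88 ± 0.20 between the hairpin libraries. After scaling, the Fasn level was 3.96 in the si-RL-labelled library and 3.87 in Treg. Elovl6, which elongates palmitate, gave 372.2 in the si-Eos-labelled library, 481.4 in the si-RL-labelled library, 739.2 in Treg and 557 in naive T cells, a difference of -0.66 ± 0.20. The genes of the entry steps, Acly (ATP citrate lyase, -0.06 ± 0.20) and Acaca (acetyl-CoA carboxylase, -0.26 ± 0.21), and of the desaturase Fads2 (0.00 ± 0.21) lay near 0. For Acaca the mean of its 4 probes was 0.65, of the other sign. The other desaturase, Fads1, differed by 0.52 ± 0.21.

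Among the regulators, Insig1, itself a known SREBP target, was at least 2-fold higher in the si-Eos-labelled library, and the SREBP genes differed less. Insig1 gave 199.3 in the si-Eos-labelled library, 70.5 in the si-RL-labelled library, 355.5 in Treg and 320.9 in naive T cells, a difference of 1.21 ± 0.21 between the hairpin libraries. Insig1 was lower in both hairpin libraries than in both untransduced samples on its brightest probe. Its other probe put the si-Eos-labelled library highest, at 185.4 against 46.5 in the si-RL-labelled library, 132.1 in Treg and 131 in naive T cells. Srebf2 gave 4264 in the si-Eos-labelled library, 2806 in the si-RL-labelled library, 4218 in Treg and 3279 in naive T cells, a difference of 0.32 ± 0.20 between the hairpin libraries. Srebf1 gave 4782 in the si-Eos-labelled library, 2505 in the si-RL-labelled library, 3302 in Treg and 2689 in naive T cells, a difference of 0.65 ± 0.20. After scaling, its level was 3.90 in the si-Eos-labelled library, 3.26 in the si-RL-labelled library, 3.07 in Treg and 3.15 in naive T cells, so Treg was lowest. On the brightest probes of Srebf1 and Srebf2 the highest array was the si-Eos-labelled library. Against Treg, 2 of the 3 other Srebf2 probes went the same way, and the remaining one gave -0.51. The Srebf2 difference of the si-Eos-labelled library from Treg also changed sign under at least 1 alternative setting. The escort gene Scap differed by 0.63 ± 0.20 and Insig2 by 0.02 ± 0.20. Stard4 gave 1060 in the si-Eos-labelled library, 446.8 in the si-RL-labelled library, 686.6 in Treg and 419.1 in naive T cells, a difference of 0.96 ± 0.20, and its 2 other probes differed by 0.86 and 0.93.

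**Figure D3:**
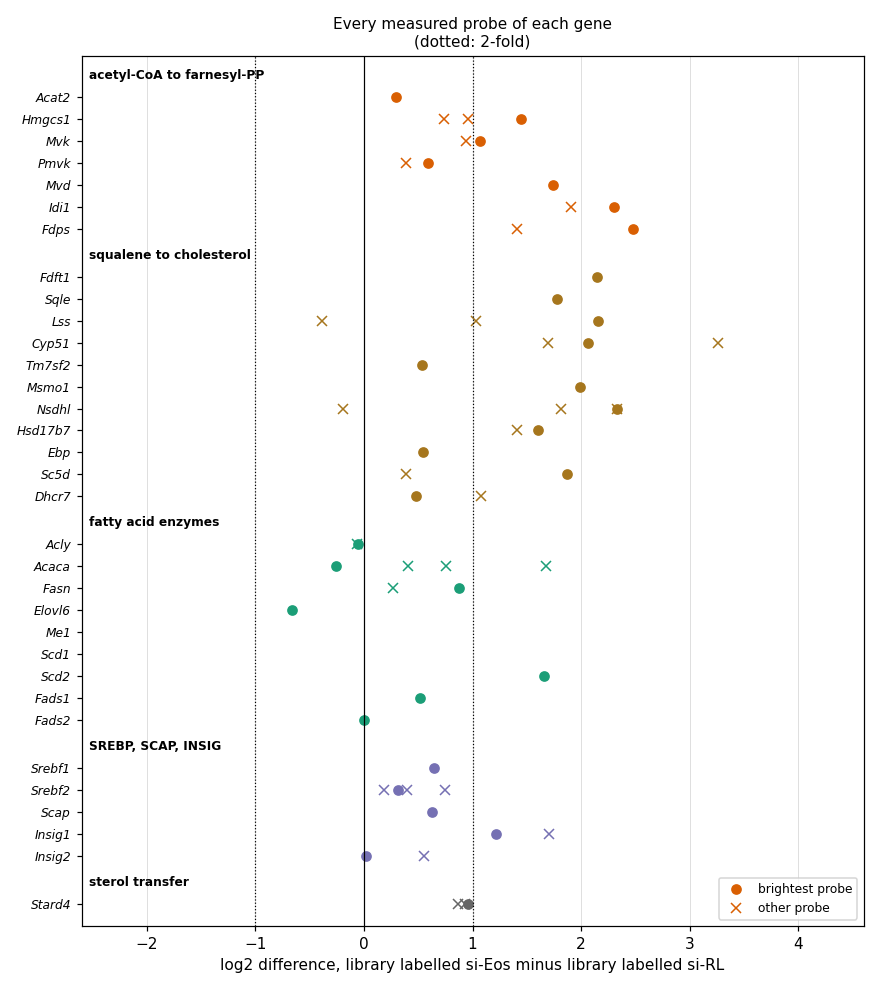
Log2 difference between the si-Eos-labelled library and the si-RL-labelled library (horizontal axis) for every measured probe of each gene; filled circles are the brightest probes, crosses the others, dotted lines 2-fold. Of 34 sterol enzyme probes, 32 lie above 0, and the exceptions belong to Lss and Nsdhl.

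Probes of the same gene mostly went the same way between the hairpin libraries. Of 34 measured sterol enzyme probes, 32 were higher in the si-Eos-labelled library and 22 were so by at least 2-fold, with a median of 1.43 over probes. The exceptions were a probe of Lss (-0.39 ± 0.22) and one of Nsdhl (-0.20 ± 0.30). This Lss probe gave 45.9 in the si-Eos-labelled library and 49.3 in the si-RL-labelled library. The brightest Lss probe gave 236.7 and 43.5, so it was no brighter in the si-RL-labelled library. With the mean of all its probes Lss differed by 0.93, inside 2-fold. The Nsdhl probe was dim, at 21.0 and 19.7. Some genes counted past 2-fold on the brightest probe had other probes inside 2-fold. These included Sc5d (0.39), Hmgcs1 (0.96 and 0.735) and Mvk (0.94). The probes of Cyp51 all stood above 2-fold but ran from 1.69 to 3.26, so the size of a single gene's difference depended on its probe by more than the scanner error. Among all members with another measured probe, 3 of 18 had a probe of the opposite sign. Acaca, Fads2 and Insig2 also changed sign under at least 1 alternative setting. Of 12 fatty acid enzyme probes, 8 were higher and 2 were so by at least 2-fold, Scd2 and a dim probe of Acaca.

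**Figure D4:**
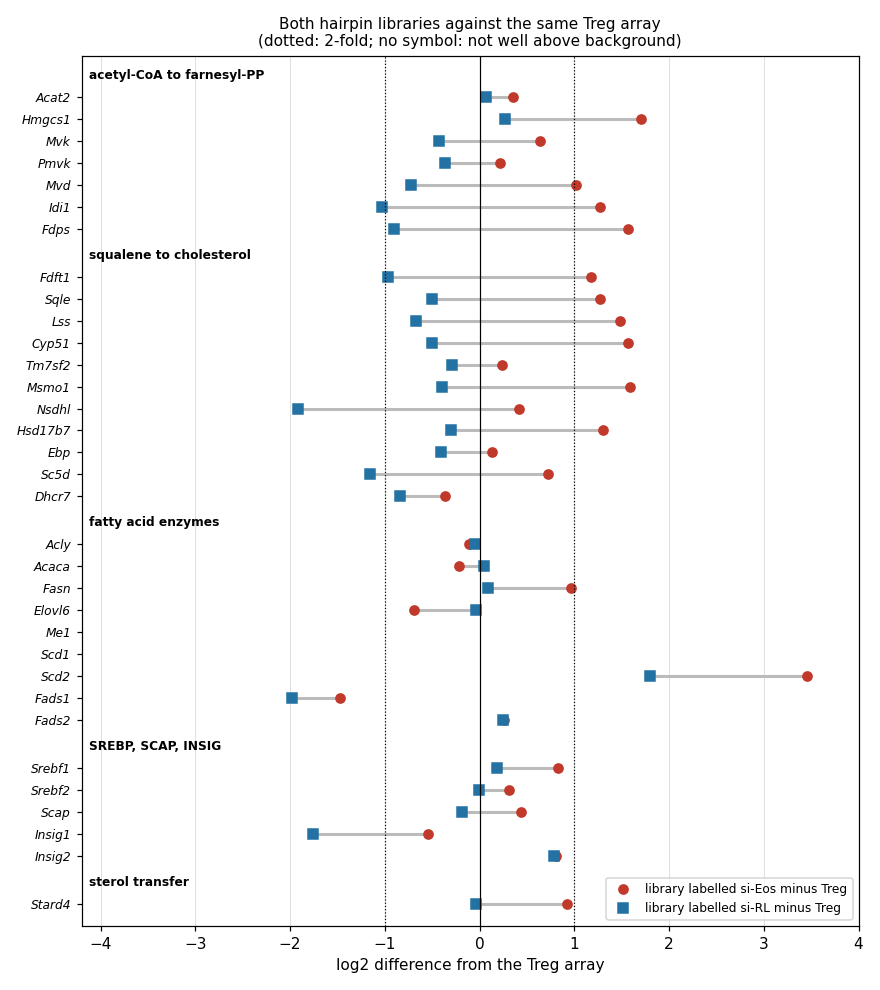
Log2 difference from the Treg array (horizontal axis) for the si-Eos-labelled library (circles) and the si-RL-labelled library (squares), for each gene measured on all of these arrays; both share the Treg array. Sterol enzymes spread between 1.71 and -0.36 in the si-Eos-labelled library, and between 0.27 and -1.92 in the si-RL-labelled library.

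Relative to Treg without transduction, the si-RL-labelled library had lower sterol enzyme levels. Of the 18 enzymes, 3 were at least 2-fold lower (Nsdhl, Sc5d and Idi1), none was 2-fold higher, and the median was -0.50. Over all 17085 measured genes, 8.21% were at least 2-fold lower, 7.89% were at least 2-fold higher, 49.5% were higher by any amount and the median was -0.01. Nsdhl was the furthest, with signals of 35.3 in the si-RL-labelled library and 199.4 in Treg, a difference of -1.92 ± 0.22. Sc5d differed by -1.16 ± 0.20, with signals of 483.2 in the si-RL-labelled library and 1611 in Treg. Fdft1 (-0.97 ± 0.20), Fdps (-0.90 ± 0.20) and Dhcr7 (-0.84 ± 0.20) were within 2-fold. Hmgcs1 was the furthest to the other side at 0.27 ± 0.20, and its other probes gave 0.87 and -1.17. Acat2, Hmgcs1, Pmvk, Msmo1 and Ebp changed sign under at least 1 alternative setting. Of 18 genes with another measured probe, 6 had a probe of the opposite sign. Among the 7 fatty acid enzymes, Scd2 was 3.48-fold higher in the si-RL-labelled library (1.80 ± 0.20) and Fads1 was at least 2-fold lower (-1.98 ± 0.21), with Fads1 signals of 81.8 in the si-RL-labelled library and 483.9 in Treg. The other 5 lay between -0.05 and 0.25, and the branch median was 0.04. Insig1 was also at least 2-fold lower, at -1.75 ± 0.21, while Insig2 differed by 0.79 ± 0.21.

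The si-Eos-labelled library was set against the same Treg array, and its sterol enzymes were higher. Of the 18 enzymes, 10 were at least 2-fold higher and none was 2-fold lower, with a median of 1.10 (2.14-fold). Over all 17900 measured genes, 8.84% were at least 2-fold higher, 10% were at least 2-fold lower, 54.2% were higher by any amount and the median was 0.06. The enzymes past 2-fold were Hmgcs1 (1.71 ± 0.20), Msmo1 (1.59 ± 0.20), Fdps (1.57 ± 0.20), Cyp51 (1.56 ± 0.21), Lss (1.49 ± 0.21), Hsd17b7 (1.30 ± 0.21), Idi1 (1.28 ± 0.20), Sqle (1.27 ± 0.20), Fdft1 (1.18 ± 0.20) and Mvd (1.01 ± 0.20). Dhcr7, a late sterol reductase, was the only sterol enzyme below Treg, at -0.36 ± 0.20, while Acat2, Mvk, Pmvk, Tm7sf2, Nsdhl and Ebp changed sign under at least 1 alternative setting. Of 19 genes with another measured probe, 7 had a probe of the opposite sign, among them Hmgcs1 (-0.43), Idi1 (-0.33), Lss (-0.42) and Sc5d (-0.53). Scd2 was 11.0-fold higher than in Treg (3.46 ± 0.20), a difference reached or passed by 0.50% of all measured genes. Scd1 was at least 18.9-fold higher. Fads1 was at least 2-fold lower, at -1.47 ± 0.20, and the median of the 7 fatty acid enzymes was -0.11. Fasn (0.96 ± 0.20), Stard4 (0.92 ± 0.20) and Srebf1 (0.83 ± 0.20) were just inside 2-fold, and Insig2 differed by 0.80 ± 0.20.

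Set side by side, the differences of the hairpin libraries from Treg varied by gene. For Hmgcs1 the hairpin libraries (si-Eos, then si-RL) differed from Treg by 1.71 and 0.27, and for Nsdhl by 0.41 and -1.92. For Fdps the values were 1.57 and -0.90, for Msmo1 1.59 and -0.40, and for Sc5d 0.72 and -1.16. Fads1 was below Treg in both (-1.47 and -1.98), and Scd2 above it in both (3.46 and 1.80). Since these comparisons share 1 Treg array, an error of that array would enter both.

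Treg and naive T cells, both untransduced, had similar sterol branch levels. None of the 18 sterol enzymes was 2-fold apart, and their median was -0.02, the same as that of all 17598 measured genes. Treg exceeded naive T cells by 2-fold or more for 5.52% of these genes and by any amount for 47.7%, and fell short 2-fold for 2.05%. Of the 18 sterol enzymes, 8 were higher in Treg by any amount. Sc5d was the furthest, at 0.80 ± 0.20, with signals of 1611 in Treg and 715.1 in naive T cells, and Lss was the lowest at -0.48 ± 0.21. Scd2 was the only one of the 31 measured genes past 2-fold, at 1.29 ± 0.20, with signals of 1475 in Treg and 467.3 in naive T cells. Fasn followed at 0.56 ± 0.20, and the median of the 7 fatty acid enzymes was 0.08. The directions of most other genes in this comparison lay within the scanner error, and the signs of both branch medians changed with the scaling.

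Other genes around the pathway, in lists made by role, differed in both directions. Their counts stand against 10.7% of all measured genes at least 2-fold higher and 10.1% at least 2-fold lower, with a median of 0.04. Between the si-Eos-labelled library and the si-RL-labelled library, 2 of 11 measured genes of the isoprenoid side branches were at least 2-fold higher and 1 was lower (median 0.48). Among them Ggps1, the geranylgeranyl diphosphate synthase, differed by 1.06 ± 0.21, but its 2 other probes gave 0.09 and -0.49. Pggt1b, a subunit of geranylgeranyl transferase, differed by -1.18 ± 0.20, and its other probe gave 0.52. Of 12 genes that process or assist SREBPs, 1 was at least 2-fold higher, Nfya (1.44 ± 0.20), which encodes a subunit of NF-Y. Mbtps2, the site-2 protease that releases SREBPs in the Golgi, was at least 2-fold lower (-1.08 ± 0.20), though its other measured probe gave 0.17. The brightest Nfya probe gave 833.1 in the si-Eos-labelled library, 251.3 in the si-RL-labelled library, 5498 in Treg and 3413 in naive T cells, so both hairpin libraries were below both untransduced samples. The other Nfya probe was dim and gave 48.7 in the si-Eos-labelled library, 57.9 in the si-RL-labelled library, 54.9 in Treg and 42.4 in naive T cells, so the gap rests on 1 probe.

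Among 13 measured genes of sterol uptake, storage and efflux, none was 2-fold higher in the si-Eos-labelled library than in the si-RL-labelled library and 2 were 2-fold lower. Soat2 and Ch25h, an esterifying and a hydroxylating enzyme of cholesterol, were well above background in the si-Eos-labelled library and not in the si-RL-labelled library, with bounds of at least 2.01-fold for Soat2 and at least 2.09-fold for Ch25h. Mylip, the ubiquitin ligase that removes lipoprotein receptors, differed by -2.56 ± 0.21, with signals of 201.2 in the si-Eos-labelled library, 971.9 in the si-RL-labelled library, 1159 in Treg and 1811 in naive T cells. Vldlr, a lipoprotein receptor, gave 203.8 in the si-Eos-labelled library and 698 in the si-RL-labelled library, and was not well above background in Treg (2.64) or naive T cells (2.26). Against Treg it was at least 22.3-fold higher in the si-Eos-labelled library and at least 93.3-fold higher in the si-RL-labelled library. Both Vldlr probes showed this order.

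Of 19 measured genes of other lipid synthesis steps, 5 were at least 2-fold higher in the si-Eos-labelled library than in the si-RL-labelled library and 3 were lower, with a median of 0.21, against 10.7% higher and 10.1% lower over all measured genes. Hsd17b12, the ketoacyl reductase of long-chain elongation, was the furthest at 2.62 ± 0.21, and its other probe gave -0.08. Elovl1, an elongase of very long chains, differed by 1.52 ± 0.20, the acyl-CoA synthetase gene Acsl5 by 1.43 ± 0.20 and Mid1ip1, a partner of acetyl-CoA carboxylase, by 1.43 ± 0.20. The opposite pathway, fatty acid oxidation, had 3 of 17 genes at least 2-fold higher and none lower, with a median of 0.16, against the same 10.7% and 10.1%. These were Etfb (1.54 ± 0.20), Eci1 (1.39 ± 0.20) and Hadha (1.12 ± 0.21), though another Hadha probe gave -0.47.

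Markers of cell type and cycle were read on the same arrays. Of 8 T cell markers 7 were on the array and were well above background in every sample, with summed levels (signals relative to the 75th percentile) of 257 in the si-Eos-labelled library, 163 in the si-RL-labelled library, 267 in Treg and 305 in naive T cells. The 7 Treg markers summed to 322 in the si-Eos-labelled library, 120 in the si-RL-labelled library, 148 in Treg and 27.4 in naive T cells. A sum weighs bright genes most. By gene, 5 of the 7 were at least 2-fold lower in the si-RL-labelled library than in Treg and 0 were higher (median -2.43). This compares with 8.21% of all measured genes lower. In the si-Eos-labelled library 2 were at least 2-fold higher than in Treg and 1 was lower (median 0.20), against 8.84% and 10%. The 10 cell cycle markers summed to 68.5 in the si-Eos-labelled library, 37.0 in the si-RL-labelled library, 54.2 in Treg and 39.2 in naive T cells. The sums of all 3 lists were thus higher in the si-Eos-labelled library than in the si-RL-labelled library. By gene, 6 of 7 Treg, 4 of 10 cell cycle and 2 of 7 T cell markers were at least 2-fold higher there, against 10.7% of all measured genes. None was 2-fold lower, but 2 cell cycle and 2 T cell markers were lower by any amount. The part of these lists in the result was not tested. Between Treg and naive T cells, 7 of 10 cell cycle markers were at least 2-fold higher in Treg. The 10 B cell markers summed to 5.22 in the si-Eos-labelled library, 3.89 in the si-RL-labelled library, 9.65 in Treg and 4.81 in naive T cells, with Pax5 well above background only in the si-Eos-labelled library. NK and CD8 markers summed to 5.45 in the si-Eos-labelled library, 3.14 in the si-RL-labelled library, 3.90 in Treg and 7.31 in naive T cells, with between 6 and 8 of 8 well above background. Myeloid markers summed to between 1.51 and 1.63 (4 to 6 of 10 well above background), with Csf3r and S100a8 not well above background on any array. In these bulk samples, fewer cells of a kind and less RNA per cell cannot be told apart.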

How the data were processed

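RNA of 4 CD4+ T cell samples was hybridised with Cy3 to 1-colour Agilent mouse arrays after linear amplification, per the labels' protocols. The deposited intensity values were made by the authors with Agilent Feature Extraction 9.5.3.1, with spatial and multiplicative detrending and without scaling the arrays to each other, per the file headers. Probe positions are given on mm8. All arrays were on 1 slide and in 1 scan. The deposited series value table held the same intensity values: on each array 100% of spots agreed within 0.5%, with a median ratio of 1; its column medians were 33.2 (naive T), 50.5 (Treg), 38.5 (si-Eos) and 31.5 (si-RL), so it was linear and not centred.

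From 43379 non-control spots, 71 to 94 per array flagged as outliers were left out, none was saturated, and replicate spots were averaged as log2 values. The array's 75th percentile over 41174 probes was subtracted. The 75th percentile of the signal was between 262 and 392. Names came from the RefSeq accession for 24367 probes, a current symbol for 6307 and a single synonym for 2425; 8075 kept the file's name. The median scanner error of a probe was 0.16 to 0.17 (log2); the number of arrays, not of probes, limits precision. No p-value was computed, as each group was 1 array. The counting step was tested on simulated data. Named were all members, Ikzf4 and Foxp3, paralogs of members, and from each other list at most 4 genes at least 2-fold apart. Members and lists were chosen with earlier results of these data known. Alternatives covered scaling, quantile normalization, normexp background correction (limma 3.58.1, offset 50), the probe choice, the dim-probe filter, the deposited value table and a 1.5-fold threshold. Python 3.11.15 and R 4.3.3 were used.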

Additional observations from a re-analysis of the deposited data

Results flagged for a closer look

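Idi1, the isopentenyl diphosphate isomerase, differed from Treg in opposite directions in the hairpin libraries, by at least 2-fold in each: 1.28 on the log2 scale in the si-Eos-labelled library and -1.03 in the si-RL-labelled library. It was the only one of the 31 measured genes to do so, by a narrow margin. With median scaling its si-RL difference was -0.95. Fdft1 (1.18 and -0.97) and Fdps (1.57 and -0.90) had the same directions, just inside 2-fold in the si-RL-labelled library. The difference between the hairpin libraries was not tested, and both comparisons use the same Treg array. The other Idi1 probe gave -0.33 in the si-Eos-labelled library and -2.25 in the si-RL-labelled library. The file places both Idi1 probes on chromosome 2, not 13, so their locus cannot be told here.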

How the results depend on the processing

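No paired analysis was possible because each group was 1 array, and no sample could be left out. Over 4 comparisons, 34 differences of a member reached 2-fold, and none of them changed sign under the 7 alternatives. They were picked for their size, and some alternatives held the same values or shifted all genes of an array alike. Their kept signs were therefore a weak check. Medians here are log2 differences. The sterol median of 1.76 between the hairpin libraries kept its direction throughout, with 1.32 under normexp and 1.32 with the mean of all probes, where the fatty acid median was 0.52. Counted from 1.5-fold, 1 member was lower in the si-Eos-labelled library. For Treg against naive T cells, the sterol and fatty acid medians were -0.23 and -0.13 with median scaling and 0.27 and 0.37 with spike-in scaling, and the fatty acid median was 0.36 with the mean of all probes; members at least 2-fold higher numbered 2 with spike-in scaling, 0 with normexp and 2 from 1.5-fold, against 1. For the si-RL-labelled library against Treg, spike-in scaling gave medians of -0.86 (sterol) and -0.31 (fatty acid) and 10 members lower instead of 5; from 1.5-fold, 2 were higher and 10 lower. For the si-Eos-labelled library against Treg, the sterol and fatty acid medians were 0.78 and -0.42 with spike-in scaling, 0.65 and -0.45 with normexp, and 0.73 and 0.15 with the mean of all probes; members at least 2-fold higher numbered 6 with spike-in scaling and 17 from 1.5-fold, against 11, and 2 were lower in both, against 1. The share of all genes past the same cut is not given for these alternatives, so the changed member counts cannot be told from a change in all genes. Spike-in scaling moved the median of all genes to 0.27 (Treg against naive T), -0.36 (si-RL against Treg) and -0.26 (si-Eos against Treg). It shifts every gene of an array by the same amount, so it cannot change the sterol medians relative to all genes. Normexp moved it to 0.21, -0.31 and -0.36 in the same comparisons. The cause of the shifts with the probe choice was not tested. Signals near background, as for Scd1 and Me1, give bounds or no value.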
